A study of Mus musculus with 4 samples.

Results

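Immune checkpoint ligands are proteins on or from tumour cells that bind receptors of lymphocytes and macrophages and damp or tune their response. Their transcripts were followed here in ID8 cells, a mouse ovarian cancer line, with and without knockdown of USP9X, a deubiquitinase. The ligand genes were Cd274, Pdcd1lg2, Cd276, Cd47, Nt5e, Pvr, Nectin2, Lgals9, Cd80 and Cd86. They were selected by gene symbol, and all 10 were found among the 22063 genes of the expression table. Of these, 6 passed the filter on low counts and could be tested, 2 were counted at a few reads per library and 2 at 0.

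Total RNA was sequenced after oligo(dT) selection from ID8 cells carrying a control shRNA (shCtrl, genotype given as WT) or an shRNA against USP9X (shUSP9X, genotype given as USP9X knockdown), with 2 libraries in each group. The study asked how USP9X takes part in TGF-β signalling, stem-like properties and drug resistance of ovarian cancer cells, and this comparison asks which transcripts differ once USP9X is reduced. The ID8 cells of the study were kept in DMEM with serum and its shRNAs were delivered by lentivirus. The study lists more than a single mouse Usp9x shRNA. Which of them these libraries carry, the growth state at harvest and whether replicates were separate cultures are not given in the sources used here. The sample descriptions of the shUSP9X libraries hold numbers other than their replicate numbers, and what these stand for is not stated. The p-values therefore measure the spread between these libraries, which may be technical. Depth, as the total of estimated counts per library, was 17232006 and 15611363 in the control and 19978889 and 17021261 in the knockdown group. A count of 3, taken as the floor of detection, corresponded to 0.15 to 0.192 CPM, that is, counts scaled to a common library total. The CPM values of genes given below were also scaled by the TMM factor of each library (0.9898 to 1.013).

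PD-L1 (Cd274) and PD-L2 (Pdcd1lg2) bind PD-1 on T cells, while CD80 and CD86 bind the activating receptor CD28 and the inhibitory receptor CTLA-4. CD155 (Pvr) and CD112 (Nectin2) are nectin family adhesion molecules read by the inhibitory receptor TIGIT and the activating receptor DNAM-1 on T and NK cells. Galectin-9 (Lgals9) is a sugar-binding protein and a ligand of TIM-3, CD47 engages SIRPα on macrophages as a "do not eat me" signal, and CD73 (Nt5e) makes extracellular adenosine from AMP. B7-H3 (Cd276) is a B7 family member common on solid tumours. Interferons are the best known inducers of PD-L1 and galectin-9 transcripts, through JAK kinases and STAT and IRF transcription factors.

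The knocked-down gene was examined first. Usp9x, on chromosome X of GRCm38 (chrX:13071498-13173328, plus strand), was counted 5169 and 4453 times in the shCtrl libraries and 390 and 346 times in the shUSP9X libraries. The groups did not overlap, and the log2 fold change of −3.85 (SE 0.058) had an adjusted p of 4.66e-26 in edgeR's quasi-likelihood test. Once the trend of fold changes with GC content and transcript length was removed from each library, it was −2.35.

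Galectin-9, B7-H3, CD155 and PD-L1 transcripts were higher in shUSP9X cells, CD47 transcripts were slightly lower by count, and CD112 transcripts did not pass the test. Of the 6 tested ligand genes, 4 were therefore higher and 1 lower at an adjusted p under 0.05. This has to be read against the whole table, where 7707 of 11448 tested genes (67.3%) passed the same threshold, 33.8% of all tested genes being higher and 33.6% lower. At an unadjusted p under 0.05 with a fold change over 1.5, the cutoff in the study's methods, 3 ligand genes were higher (Lgals9, Cd274 and Cd276) and 0 were lower, beside 10.8% and 18.7% of all tested genes. Among the tested ligand genes, the CPM of 4 lay higher in both shUSP9X libraries than in either shCtrl library and that of 1 lay lower, while 82.3% of all tested genes had no overlap between the groups. The median log2 fold change was 0.56 over the 6 tested ligand genes and −0.001 over all tested genes. A log2 fold change over 1, as measured for Lgals9 and Cd274, was found for 3.56% of tested genes. In bulk libraries such as these, a change in the share of some cells and a change in RNA per cell cannot be told apart.

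**Figure D1:**
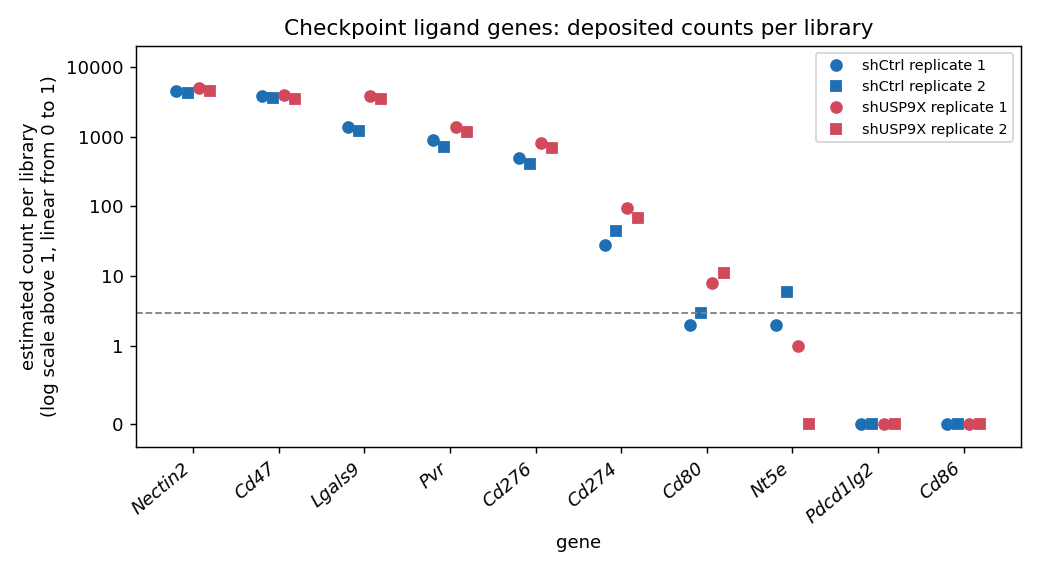
Estimated count of each ligand gene in each library (log scale above 1, linear from 0 to 1), with shCtrl libraries in blue and shUSP9X libraries in red; the dashed line marks the floor of 3 counts. The red points of Lgals9, Pvr, Cd276 and Cd274 lie above the blue ones, Cd80 and Nt5e lie near the floor, and Pdcd1lg2 and Cd86 are at 0 in all 4 libraries.

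Fold changes in this comparison moved with base composition and transcript length. Across genes, the log2 fold change correlated with GC content (Spearman rho 0.43 over 11430 genes, which are not independent replicates and share the 4 libraries) and with length (rho −0.32). The 6 tested ligand genes were therefore also tested with an offset that removes this trend from each library. Under it, 64.2% of all tested genes passed an adjusted p of 0.05 and their median was 0.08. Of the ligand genes, 5 were then higher and 1 lower. Cd47 turned to higher (0.48), which depended on the transcript used, as given below, and Nectin2 was the lower one (−0.21).

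Lgals9 showed the largest rise among the tested ligand genes by count, whereas Cd274 was ahead of it with the offset (1.23 against 1.15) and without shCtrl replicate 2 (1.46 against 1.34). The gene (ENSMUSG00000001123, GRCm38 chr11:78962974-78984946, minus strand) had 1366 and 1195 counts in the shCtrl libraries and 3852 and 3444 in the shUSP9X libraries. In CPM, with TMM scaling, these were 78.7 and 75.5, then 194.8 and 204.3. The groups thus lay far apart and the libraries within a group close together. The fold change was 2.58 (95% confidence interval 2.41 to 2.77), a log2 fold change of 1.37 (SE 0.05) with an adjusted p of 1.35e-18 (edgeR). Only 2.05% of tested genes had a higher log2 fold change. The offset for GC content and length left 1.15 (adjusted p = 1.14e-13), and every alternative processing gave between 1.15 and 1.41. Genes of similar GC content (51.5 to 53.5%) had a median log2 fold change of 0.18.

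Of the PD-1 ligands, PD-L1 was low and higher in shUSP9X cells, and PD-L2 was not detected. Cd274 (ENSMUSG00000016496, GRCm38 chr19:29367455-29388095, plus strand) had 28 and 44 counts in the shCtrl libraries and 94 and 69 in the shUSP9X libraries, or 1.61, 2.78, 4.75 and 4.09 CPM. Both shUSP9X libraries were above both shCtrl libraries, but the shCtrl libraries differed widely from each other, at 2.2 ± 0.826 CPM (SD, n = 2). The fold change of 2.03 consequently had a wide interval (95%, 1.36 to 3.03), with a log2 fold change of 1.02 (SE 0.281) and an adjusted p of 0.00238. A higher log2 fold change was found for 3.38% of tested genes. The estimate was 0.68 without shCtrl replicate 1 and 1.46 without shCtrl replicate 2, and the adjusted p stayed under 0.05 in all 14 alternatives in which Cd274 was tested, its highest value being 0.049 without shCtrl replicate 1. With the offset it was 1.23 (adjusted p = 8.51e-04), while genes of similar GC content (43.7 to 45.8%) had a median of −0.20. Exons of Cd274 share bases with the antisense gene AC119228.1, and since the library kit is not stated to keep strand, reads of these genes cannot be told apart. Pdcd1lg2 (ENSMUSG00000016498, GRCm38 chr19:29410919-29471161, plus strand), its neighbour on chromosome 19, was counted 0 times in every library, which allows up to 3 counts in each.

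B7-H3 was expressed at a moderate level and rose less. Cd276 (ENSMUSG00000035914, GRCm38 chr9:58524298-58555437, minus strand) had 491 and 405 counts in the shCtrl libraries and 822 and 685 in the shUSP9X libraries, or 28.3, 25.6, 41.6 and 40.6 CPM. The groups were well separated, with a fold change of 1.52 (95% confidence interval 1.35 to 1.72) and a log2 fold change of 0.61 (SE 0.085, adjusted p = 5.43e-07). It was the ligand gene just inside the fold cutoff of 1.5, and Pvr, at 1.43, was the one just outside. Cd276 dropped under that fold without shCtrl replicate 2 (log2 fold change 0.54), with scaling to library size only (0.58) and with the offset (0.47, adjusted p = 8.47e-05). Some of its exonic bases are shared with Gm10657, annotated on the opposite strand.

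Lgals9 and Cd274, the tested ligand genes with the largest rises, are shown by the 100 bases before their RefSeq start, where interferon-responsive elements would be sought. The stretches come from RefSeq promoter windows (GRCm38.p6, from 250 bases before to 50 bases after the start), which were matched for 8 of the 10 genes and not for Pvr and Cd86. They are Lgals9 at chr11:78984925-78985024 (minus strand) and Cd274 at chr19:29367338-29367437 (plus strand), each written 5′ to 3′ along the gene. RefSeq and GENCODE starts are not the same, so the last bases of the Lgals9 stretch lie inside the gene as GENCODE bounds it, and the whole windows of Cd276, Nectin2, Nt5e, Cd80 and Cd47 lie inside their genes as GENCODE bounds them. Capitals mark matches to GAAANNGAAA, the core of the interferon-stimulated response element (ISRE), or to its shorter form GAAANNGAA, here read on the opposite strand.
Lgals9: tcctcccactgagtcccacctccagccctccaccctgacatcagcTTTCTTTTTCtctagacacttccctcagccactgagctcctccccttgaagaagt
Cd274: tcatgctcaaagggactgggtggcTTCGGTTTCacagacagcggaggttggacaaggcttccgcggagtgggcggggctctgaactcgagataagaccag

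Motifs were searched on both strands of the whole windows. GAAANNGAAA occurred in 3.44% of all 32851 RefSeq windows, and among the 8 matched ligand genes in Lgals9 only, at −55 to −46 and again at 16 to 25 relative to the start. GAAANNGAA, which every match of the longer form contains, occurred in 8.56% of windows and in Lgals9 and Cd274 (−76 to −68). The palindrome TTCNNNGAA, the core of the STAT-bound GAS element, occurred in 8.3% of windows and in none of the 8. The NF-κB motif occurred in 8.46% of windows and in Pdcd1lg2 only, the ligand gene with 0 counts. A match of letters does not show binding, and the absence of one concerns these windows only, which for those 5 genes do not reach the GENCODE start.

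Of the ligands of TIGIT and DNAM-1, CD155 was higher in shUSP9X cells and CD112 kept its place as one of the most abundant ligand transcripts. Pvr (ENSMUSG00000040511, GRCm38 chr7:19903578-19921160, minus strand) had 911 and 704 counts in the shCtrl libraries and 1381 and 1173 in the shUSP9X libraries. At 52.5 and 44.5 CPM the shCtrl libraries lay below the 69.8 and 69.6 CPM of the shUSP9X libraries. The fold change was 1.43 (95% confidence interval 1.3 to 1.59), with a log2 fold change of 0.52 (SE 0.07, adjusted p = 3.23e-07), and 14.3% of tested genes were higher. With the offset it was 0.47, and leaving out shCtrl replicate 1 raised it to 0.66, past the fold cutoff.

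Nectin2 (ENSMUSG00000062300, GRCm38 chr7:19716644-19750483, minus strand), near Pvr on chromosome 7, had 4564 and 4273 counts in the shCtrl libraries and 5007 and 4553 in the shUSP9X libraries. The groups overlapped, at 263.1 and 270.1 CPM against 253.2 and 270.1 CPM. Its log2 fold change of −0.03 (95% confidence interval −0.11 to 0.06) did not pass the test (adjusted p = 0.567). Nectin2 belongs to the tenth of genes richest in GC, whose median was 0.19, and with the offset it was lower in shUSP9X cells, at −0.21 (adjusted p = 8.4e-05). Its exons share bases with the antisense gene Gm20512.

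CD47 was abundant and changed little. Cd47 (ENSMUSG00000055447, GRCm38 chr16:49800533-49915010, plus strand) had 3789 and 3600 counts in the shCtrl libraries and 4002 and 3448 in the shUSP9X libraries. In CPM, 218.4 and 227.6 in shCtrl cells stood against 202.4 and 204.6 in shUSP9X cells, without overlap. The fold change was 0.913 (95% confidence interval 0.86 to 0.969), with a log2 fold change of −0.13 (SE 0.042, adjusted p = 0.00706), and 59.4% of tested genes had a higher value. This call was not stable. It was lost in DESeq2 (−0.12, adjusted p = 0.061) and without either shUSP9X library (−0.12, adjusted p = 0.11 without replicate 1, and −0.13, adjusted p = 0.077 without replicate 2). On the deposited FPKM values, which the authors scaled for transcript length and library size, the groups overlapped at 104.8 and 112.7 FPKM in shCtrl cells and 111.2 and 111.9 FPKM in shUSP9X cells. With the offset, Cd47 turned to 0.48 (adjusted p = 3.59e-09) when the length and GC content of its longest transcript (5250 nt) were used, but to −0.01 (adjusted p = 0.799) with the annotated transcript of 1898 nt, nearest to the 1937 nt that its counts and FPKM imply. No direction for Cd47 held across these settings.

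**Figure D2:**
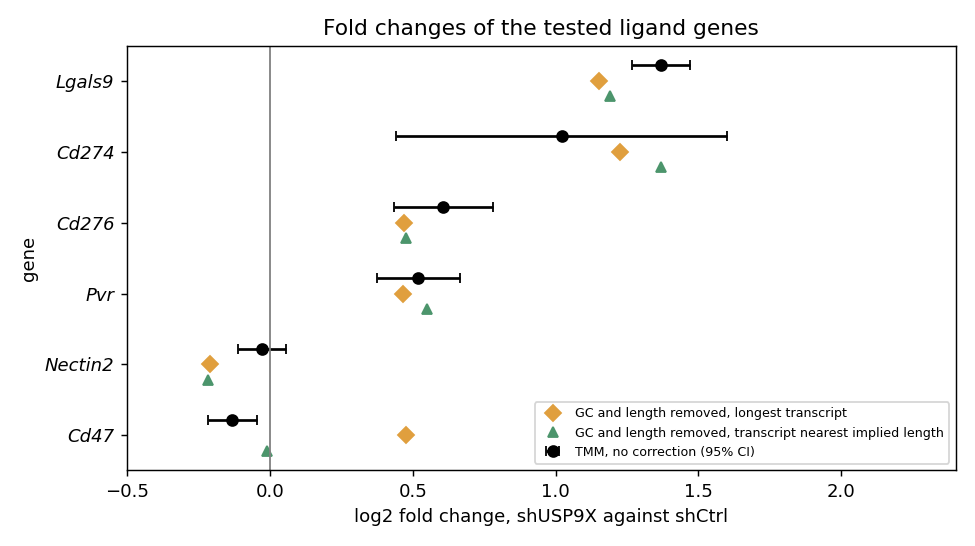
Log2 fold change of shUSP9X against shCtrl for the 6 tested ligand genes. Black points with bars are the edgeR estimates with their 95% confidence intervals, orange diamonds the estimates with the trend on GC content and length of the longest transcript removed, and green triangles those with the transcript nearest the length implied by counts and FPKM. Lgals9, Cd274, Cd276 and Pvr lie to the right of 0 under all 3, whereas Cd47 moves from −0.13 to 0.48 and to −0.01.

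The remaining ligand genes were at the edge of detection. Cd80 (ENSMUSG00000075122, GRCm38 chr16:38455561-38496335, plus strand) had 2 and 3 counts in the shCtrl libraries and 8 and 11 in the shUSP9X libraries. It did not pass the filter, and without the filter its unadjusted p was 0.109 and its adjusted p 0.18. Nt5e (ENSMUSG00000032420, GRCm38 chr9:88327197-88372092, plus strand) had 2 and 6 counts in the shCtrl libraries and 1 and 0 in the shUSP9X libraries, with an adjusted p of 0.219 without the filter. No difference was detected in either gene at these counts. Cd86 (ENSMUSG00000022901, GRCm38 chr16:36603869-36666081, minus strand) was counted 0 times in all 4 libraries.

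Levels of different genes were compared on the FPKM scale only. In shCtrl cells the order of mean levels was Nectin2 at 118.7 ± 2.56 FPKM, Cd47 at 108.7 ± 5.53, Lgals9 at 51.2 ± 1.28, Pvr at 16.9 ± 1.89, Cd276 at 8.15 ± 0.619 and Cd274 at 0.614 ± 0.233 FPKM (SD, n = 2 for each). Each of these neighbours was separated in both libraries, and Cd80 and Nt5e, both under 0.1 FPKM, overlapped each other. In shUSP9X cells Lgals9 moved to the first place at 129.8 ± 4.41 FPKM, ahead of Nectin2 at 115.8 ± 5.78 and Cd47 at 111.5 ± 0.482 FPKM, which overlapped. Pvr followed at 23.8 ± 0.0509, Cd276 at 12.3 ± 0.189 and Cd274 at 1.21 ± 0.127 FPKM. Among all genes of a library, Lgals9 ranked between 1622 and 1684 by FPKM in shCtrl cells and between 598 and 640 in shUSP9X cells.

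The make-up of the ligand transcripts shifted with it. The 10 genes together had 301.2 and 307.6 FPKM in shCtrl cells, against 387.3 and 402.3 FPKM in shUSP9X cells. The share of Lgals9 in the mean sum was 16.8% in shCtrl and 32.9% in shUSP9X cells, while that of Nectin2 was 39% and 29.3% and that of Cd47 35.7% and 28.2%. The ratio of Lgals9 to Nectin2 on the FPKM scale was 0.446 and 0.418 in the shCtrl libraries and 1.13 and 1.11 in the shUSP9X libraries. By contrast, the ratio of Lgals9 to Cd274 was 116 and 64.7 in shCtrl and 97.5 and 119 in shUSP9X libraries, which overlap. PD-L1 transcripts remained far below those of galectin-9 in every library.

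**Figure D3:**
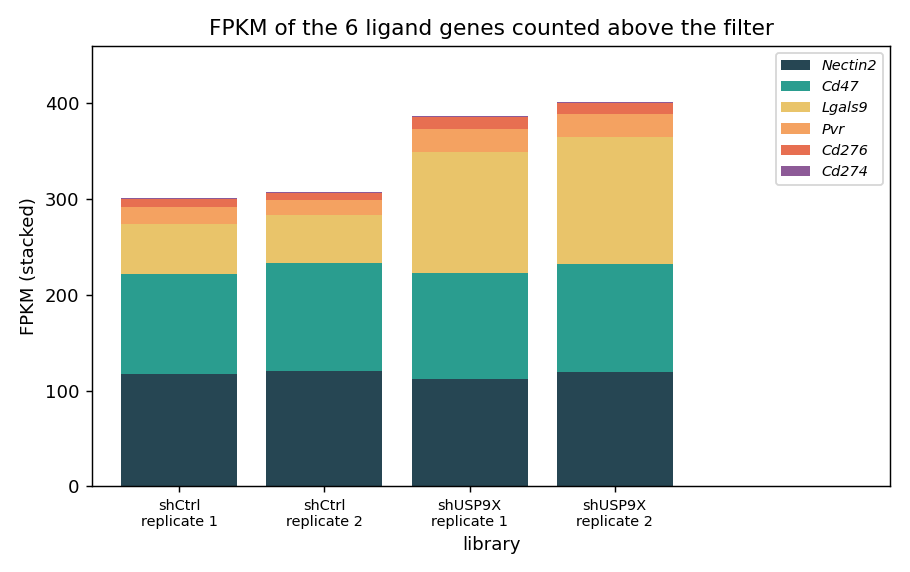
FPKM of the 6 tested ligand genes, stacked for each of the 4 libraries. The Lgals9 segment is 50.3 to 52.1 FPKM high in the shCtrl libraries and 126.7 to 133 FPKM high in the shUSP9X libraries, while the Nectin2 and Cd47 segments are of similar height in all 4.

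Of the receptors of these ligands, Tigit, Sirpa and Havcr2 were expressed above the filter, and of these Tigit alone passed the test. Thus 3 of 11 receptor genes were tested, 1 was higher and 0 were lower, and 1 of 3 is near the 33.8% of all tested genes that were higher. Their median log2 fold change was 0.10, and it moved to 0.06 without shCtrl replicate 1, to 0.16 without shCtrl replicate 2, to 0.04 in limma on log2(FPKM + 1), to 0.21 with the offset and to 0.32 with the offset on the transcripts nearest the implied lengths. Tigit, which encodes the inhibitory receptor for CD155 and CD112 and is typical of T and NK cells, had 101 and 96 counts in the shCtrl libraries and 305 and 234 in the shUSP9X libraries. The groups were clearly separated, and its log2 fold change was 1.3 (SE 0.148, adjusted p = 1.68e-08), or 1.05 with the offset. Havcr2, encoding TIM-3, had 46, 45, 58 and 50 counts (adjusted p = 0.76), and Sirpa, encoding SIRPα, had 92, 75, 87 and 67 counts (adjusted p = 0.291). Cd28 was counted 3 and 13 times in the shCtrl libraries and 0 times in the shUSP9X libraries. It did not pass the filter, and most of its counts came from shCtrl replicate 2. Without the filter its adjusted p in edgeR was 0.00701, but no difference is read from counts this low. That fit is less strict for some genes, the adjusted p of Lgals9 going from 1.35e-18 to 1.72e-151. Pdcd1, Ctla4, Cd96, Cd226 and Pvrig, all receptors of lymphocytes, were at 0 in every library. Lymphocyte markers were at or near 0 beside Tigit. Over 12 of them, among which Cd3d, Cd3e, Cd3g, Cd4, Cd8a, Ms4a1, Ncr1 and Nkg7 were at 0, the counts summed to 0, 1, 4 and 4, the most abundant being Cd79a at 0, 1, 4 and 2.

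Other ligands of checkpoint or costimulatory receptors gave a mixed picture. Of 22 genes, 8 were tested, of which 6 were higher and 2 lower, beside 33.8% and 33.6% of all tested genes. With the offset, under which 64.2% of all tested genes passed, 4 were higher and 3 lower. Tnfsf9, a costimulatory ligand gene, went from 0.56 to 0.33 (adjusted p = 0.166). The median log2 fold change was 0.44. Vsir, encoding VISTA, did not pass the filter at 0 counts in both shCtrl libraries and 19 and 5 in the shUSP9X libraries. Its adjusted p without the filter was 0.00124 in edgeR, but most of its counts came from shUSP9X replicate 1 and no difference is read from them. H2-T23, the mouse Qa-1 gene whose product is read by the inhibitory receptor NKG2A, had 270 and 228 counts in the shCtrl libraries and 722 and 627 in the shUSP9X libraries (log2 fold change 1.3, SE 0.098, adjusted p = 6.82e-12). H2-T23 belongs to a multigene family of similar sequences, and its counts were not all whole, so reads shared with family members are possible. Cd24a, encoding the Siglec-binding surface protein CD24, was higher at 66 and 31 against 135 and 112 counts (log2 fold change 1.21, SE 0.243, adjusted p = 9.52e-05). Among galectins, Lgals1 was the most abundant gene of the list at 2189 FPKM in shCtrl and 2327 FPKM in shUSP9X cells, and its log2 fold change of 0.12 (adjusted p = 0.007) turned to −0.18 with the offset. Lgals3, encoding galectin-3 and named after its value was seen, had 2879 and 2859 counts against 5780 and 4980 (log2 fold change 0.76, SE 0.044, and 0.49 with the offset). Cadm1, encoding a nectin-like ligand of the receptor CRTAM, was at −0.59 (adjusted p = 1.74e-11), but at −0.18 with the offset, and −0.02 (adjusted p = 0.628) with the offset on the transcript nearest its implied length. Ceacam1, encoding a ligand of TIM-3 and named after its value was seen, was the other lower gene, at 43 and 29 counts in the shCtrl libraries and 15 and 17 in the shUSP9X libraries (log2 fold change −1.3, adjusted p = 0.00517, and −1.26 with the offset).

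The genes between interferon-γ and PD-L1 transcription did not move as a block. All 14 listed genes were tested, 7 were higher and 4 lower, beside 33.8% and 33.6% of all tested genes. The median log2 fold change was 0.22, beside −0.001 for all genes. The 7 include Nlrc5, a regulator of MHC class I genes with 3 and 4 counts in the shCtrl libraries and 19 and 29 in the shUSP9X libraries, which passed the filter through the latter alone. The median was 0.07 when at least 10 counts were required in every library, and 0.33 without shCtrl replicate 1. The transcription factor genes Irf9 and Stat2, both part of the complex that binds the ISRE, rose most among genes with a mean of at least 1 on the log2 CPM scale. Irf9 had 217 and 232 counts in the shCtrl libraries and 991 and 829 in the shUSP9X libraries (log2 fold change 1.87, SE 0.095, adjusted p = 1.95e-15). Stat2 had 412 and 384 against 1695 and 1518 counts (1.87, SE 0.07, adjusted p = 2.56e-18). In both genes the groups were several-fold apart.

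Upstream members of that axis included falls. Jak2, the kinase at the interferon-γ receptor, had 1902 and 1694 counts in the shCtrl libraries and 872 and 753 in the shUSP9X libraries (log2 fold change −1.29, SE 0.058, adjusted p = 1.41e-16), and at −0.89 with the offset. Jak1, the most abundant gene of the list at 123.9 and 97.3 FPKM, was at −0.32 (adjusted p = 4.23e-09), at −0.18 with the offset and at −0.06 (adjusted p = 0.0786) with the offset on the transcript nearest its implied length. Ptpn2, a phosphatase that restrains JAK and STAT proteins, was also lower (−0.42, adjusted p = 8.33e-05), but stood at 0.11 with the offset (adjusted p = 0.236). Irf1, the interferon-γ-induced factor known for driving PD-L1 transcription, was chosen after its values were seen, at 1719 and 1475 counts in the control libraries and 2024 and 1695 after knockdown. It did not pass the test (log2 fold change 0.08, SE 0.052, adjusted p = 0.198). With the offset it turned to −0.12 (adjusted p = 0.0348), or to −0.09 (adjusted p = 0.12) on the transcript nearest its implied length.

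Genes that act on PD-L1 or CD47 protein after transcription were all expressed. All 13 were tested, 7 were higher and 4 lower, beside 33.8% and 33.6% of all tested genes. Their median was 0.17 on the log2 scale, or 0.34 with the offset on the transcripts nearest the implied lengths. Cul3 and Spop, whose products form a ubiquitin ligase that targets PD-L1, were the most reduced. Cul3 had 4041 and 3529 counts in the control libraries and 2077 and 1816 after knockdown (log2 fold change −1.10, SE 0.046, adjusted p = 2.51e-17), and −0.23 with the offset. Spop had 2980 and 2466 against 1975 and 1660 counts (−0.72, SE 0.051, adjusted p = 1.92e-12), and kept −0.70 with the offset. Otub1, encoding a deubiquitinase, and Trappc4, encoding a vesicle trafficking protein, were the most increased without the offset, at 0.56 and 0.55. With it they were at 0.31 and 0.34, and Stt3a, encoding a subunit of the enzyme that attaches N-glycans, was the most increased at 1.06, beside 0.23 without it. Cops5, a deneddylase gene and the most abundant of the list at 118.8 and 127.9 FPKM, was higher by 0.13 on the log2 scale (adjusted p = 0.0119). Protein levels of PD-L1 and CD47 were not analysed here.

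Around CD73, the adenosine pathway was expressed only in part. Of 16 genes, 7 were tested, 4 were higher and 2 lower, beside 33.8% and 33.6% of all tested genes. Their median was 0.34 on the log2 scale, or 0.19 with the offset on the transcripts nearest the implied lengths. Entpd1, encoding CD39, which supplies CD73 with AMP, had 0 counts in the shCtrl libraries and 1 in each shUSP9X library, and the adenosine receptor genes Adora1, Adora2a, Adora2b and Adora3 had at most 4 counts in any library. The nucleoside transporter genes were expressed. Slc29a1, the most abundant gene of the list, was at 161.9 FPKM in shCtrl and 205.6 FPKM in shUSP9X cells (log2 fold change 0.34, adjusted p = 2.05e-08, and 0.12 with the offset), and Slc29a2 had the largest rise (0.99, SE 0.147, adjusted p = 1.36e-06). Panx1, encoding the ATP channel pannexin, was at 0.40 (adjusted p = 3.74e-04), but at 0.19 (adjusted p = 0.0758) with the offset on the transcript nearest its implied length. Enpp1, encoding an ectonucleotidase that also makes AMP, was lower by count (−0.69, adjusted p = 3.76e-09) and at −0.25 with the offset, but turned to 0.33 (adjusted p = 3.89e-04) with the offset on the transcript nearest its implied length. Adk, encoding adenosine kinase, was lower by count (−0.14, adjusted p = 0.0427) and turned to 0.76 with the offset, or to 0.08 (adjusted p = 0.261) on the transcript nearest its implied length.

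Nectins and nectin-like proteins, the adhesion family around CD155 and CD112, were expressed in part. Of 8 genes, 5 were tested, 1 was higher and 3 were lower by count, beside 33.8% and 33.6% of all tested genes. With the offset, under which 64.2% of all tested genes passed, 2 were higher and 2 lower. Among the higher was Cadm2, named after its value was seen, which went from 0.32 (adjusted p = 0.379) to 1.89. On the transcript nearest its implied length Cadm2 was at 0.35 (adjusted p = 0.326). By count the 5 tested genes had a median log2 fold change of −0.28, which became 0.06 with the offset and −0.02 on the transcripts nearest the implied lengths. Nectin1 was higher (0.31, adjusted p = 0.00755). Cadm4 fell by 0.77 on the log2 scale (adjusted p = 1.64e-06), and Cadm1 was described above. Afdn, encoding the nectin-anchoring protein afadin and the most abundant gene here, was at 59.3 and 49.1 FPKM, with −0.28 by count (adjusted p = 5.26e-07) and 0.06 with the offset, or −0.16 on the transcript nearest its implied length.

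**Figure D4:**
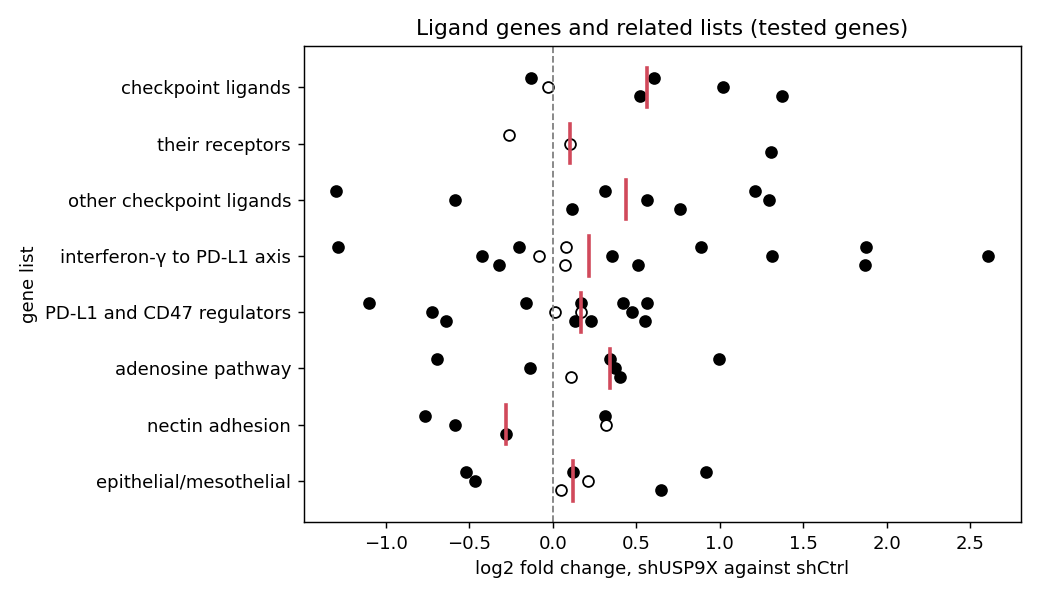
Log2 fold change of shUSP9X against shCtrl for each tested gene (points), by gene list. Filled points have an adjusted p under 0.05 (edgeR), open points do not, red bars are list medians and the dashed line is the median of all tested genes; the ligand genes have a median of 0.56 and the nectin adhesion genes one of −0.28.

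The cell line was checked against its markers. Of 10 epithelial and mesothelial markers, 7 were tested. Krt19 was the most abundant at 453 and 482.4 FPKM, and the mesothelial genes Msln and Wt1 were high but lower in shUSP9X cells (log2 fold changes −0.47 and −0.52, adjusted p = 1.27e-11 and 4.03e-12). The keratin genes Krt8 and Krt18 were higher (0.92 and 0.65, or 0.68 and 0.37 with the offset). Epcam, Pax8 and Krt7, in contrast, had at most 9 counts in any library. In all, 3 of the tested markers were higher and 2 lower, beside 33.8% and 33.6% of all tested genes. Krt19, one of the 3, was at 0.12 by count and turned to −0.14 with the offset (adjusted p = 3.35e-04). The median of 0.12 likewise turned to −0.10 with the offset, and was 0.03 without shCtrl replicate 2.

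Some markers of antigen-presenting cells, the usual source of CD80 and CD86, were counted mainly in the shUSP9X libraries, while others were at or near 0 throughout. Of 18 markers, 1 and 2 were above 3 counts in the shCtrl libraries and 8 in each shUSP9X library, and their counts summed to 106, 92, 455 and 402. The most abundant by FPKM was Cd14, at 104 and 88 counts in the shCtrl libraries and 203 and 166 in the shUSP9X libraries (log2 fold change 0.80, adjusted p = 1.11e-04). Itgam, the integrin αM gene, was at 0 in both shCtrl libraries and at 72 and 75 counts in the shUSP9X libraries. Adgre1, encoding the macrophage protein F4/80, went from 0 and 0 to 58 and 59 counts. Cd74, the invariant chain gene, had 1 and 4 counts in the shCtrl libraries and 49 and 45 in the shUSP9X libraries.

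The pan-leukocyte gene Ptprc was at 0 and 0, then 29 and 18 counts, Csf1r at 0 and 0, then 17 and 13, Cd53 at 0 and 0, then 14 and 13, and Tyrobp at 0 and 0, then 7 and 4. All 7 tested markers were called higher, beside 33.8% of all tested genes. However, all of these markers except Cd14 passed the filter through the shUSP9X libraries alone, so that a difference was built into their being tested. The MHC class II gene H2-Ab1 and the dendritic cell genes Flt3, Clec9a, Xcr1 and Siglech were at 0 in every library, H2-Aa had 0, 0, 1 and 3 counts, Itgax 0, 0, 3 and 0, and Lyz2, the lysozyme gene of macrophages, had 0, 0, 0 and 2 counts. The part of these transcripts in the counts of Cd80 or of the other ligand genes was not tested.

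**Figure D5:**
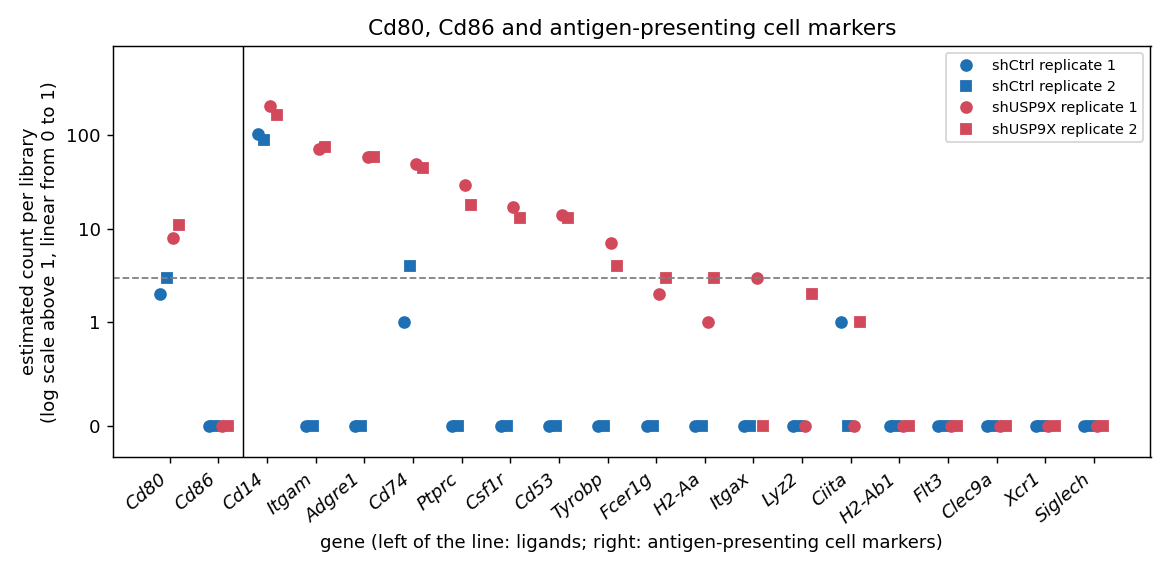
Estimated counts of Cd80 and Cd86 (left of the vertical line) and of 18 antigen-presenting cell markers (right) in each library (log scale above 1, linear from 0 to 1), shCtrl in blue and shUSP9X in red, with the floor of 3 counts dashed. Itgam, Adgre1, Ptprc, Csf1r and Cd53 are at 0 in both shCtrl libraries and between 13 and 75 counts in the shUSP9X libraries, whereas Cd86, H2-Ab1, Flt3, Clec9a, Xcr1 and Siglech are at 0 throughout.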

How the data were processed

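Reads of the 4 libraries were processed by the authors, who mapped them to GRCm38. The submitters' processing notes name fastp 0.18.0, Bowtie2 2.2.8, HISAT2, StringTie 1.3.1 and RSEM, and the study's methods name DESeq2. The annotation release and the strand setting are not given in the sources used here. The authors deposited estimated counts per gene, not normalized, and FPKM values, scaled for transcript length and library size. Between 6.4 and 6.69% of the counts were not whole, so they were rounded, although the test had been planned for whole counts. Libraries were grouped by their labels. Chi-square per gene between libraries of a group was 3.35 and 2.23, so the counts of a library were not a copy of those of the other. Whether libraries of a group came from the same RNA was not tested.

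After filterByExpr and TMM scaling, edgeR 4.0.16 under R 4.3.3 gave two-sided quasi-likelihood tests without a replicate block, with Benjamini-Hochberg adjustment over all 11448 genes passing the filter. The CPM values of genes are counts scaled to the library total times its TMM factor, whereas the floor in CPM uses the library total alone. Gene positions, lengths and GC content were taken from GENCODE M21, which held 21973 of the 22063 identifiers. The offset was a loess curve per library (span 0.3) fitted on GC content and log2 length of the longest transcript, known for 99.84% of tested genes. Alternatives were DESeq2 1.42.0, limma 3.58.1 on log2 FPKM with pseudocounts of 1 and 0.1 (genes averaging at least 1 FPKM), other scalings and filters, a replicate block, that offset, the block with the offset, and each library left out. An offset with the transcript nearest the length implied by counts and FPKM was an addition made once the values were known. Scripts were tested on simulated data first.

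The ligand genes and the other gene lists were chosen with earlier results of these data known. Named are Usp9x, all ligand genes and, per list, the called genes without overlap between groups with the largest rises (up to 2) and falls (up to 2) where log2 CPM averaged 1 or more, and the gene of highest FPKM. For cell markers, genes over 3 counts and defining markers near 0 are named too. Other genes were named after their values were seen, among them receptors and enzymes at or near 0. Since no molecular identifiers are mentioned, the floor covers counting error only.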

Additional observations from a re-analysis of the deposited data

How the results depend on the processing

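Lgals9, Cd276 and Pvr stayed higher at an adjusted p under 0.05 in all 16 alternatives, and Cd274 in all 14 that tested it (not limma on FPKM, where its mean was under the minimum). The single lower ligand gene, Cd47, was lost in DESeq2 and in limma on log2(FPKM + 1) and log2(FPKM + 0.1), leaving 0 lower, and the count ranged from 0 to 1 as libraries were left out. Cd47 reversed to 0.037 in limma with either pseudocount and to 0.48 with the offset for GC content and length, alone or with the replicate block. For the last, the longest transcript is not the one its counts and FPKM imply. Nectin2 reversed to 0.005 with upper-quartile scaling and ranged from −0.065 to 0.024 with a library left out. At the fold cutoff of the study's methods, 3 genes were higher, but 2 with scaling to library size only and 2 with the offset. In limma, where Cd274 was not tested, 2 were higher on log2(FPKM + 0.1) and 1 on log2(FPKM + 1). Leaving out a shCtrl library moved Cd276 or Pvr across the fold cutoff, as given above. For Usp9x the alternatives ran from −3.91 to −2.13. The number of genes changed across the table was 7707, against 6184 in DESeq2 and 7345 with the offset. Same-numbered libraries did not deviate together (correlation −0.05 over 11448 genes). With 2 libraries per group, this cannot show whether they were handled as pairs. With a replicate block 7665 genes passed, and the ligand genes kept 4 higher and 1 lower. Precision was limited by 2 libraries per group and, for Cd274, Cd80 and Nt5e, by counts under 100.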
